A study of Mus musculus with 6 samples.

Results

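The cytochrome P450 genes of the colon were taken as every gene listed under a symbol made of Cyp, a family number, a subfamily letter and a gene number, without *Cyp7b1* and *Cyp27a1*. In all, 62 of the 17778 genes listed met this rule, and all 62 had a value above 0 in at least 1 mouse. RNA of the colon was sequenced in 3 obesity-prone (OP) and 3 obesity-resistant (OR) mice, male wild-type C57BL/6J animals that had all eaten a high-fat diet with 60% of its energy as fat for 16 weeks and were 21 weeks old. The phenotype was assigned by weight gain, as the 10 mice that gained most and the 10 that gained least among 42 mice on the diet. How the 3 sequenced mice of each group were chosen, and which segment of the colon was taken, were not given in the sources used here. Each mouse was a library of its own, and no label ties an OP mouse to an OR mouse.

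Cytochrome P450 enzymes are heme proteins that insert an oxygen atom into their substrates, with electrons passed to most of them by the reductase Por in the endoplasmic reticulum. Enzymes of the Cyp1, Cyp2 and Cyp3 families oxidise drugs, food compounds and fatty acids such as arachidonic acid, those of the Cyp4 family hydroxylate the chain ends of fatty acids and eicosanoids, and other families make or break down bile acids, steroid hormones, vitamin D and retinoic acid. In the gut they are known mainly from the absorptive epithelium, where the nuclear receptors PXR and CAR, the factor HNF4 and the aryl hydrocarbon receptor regulate many of them.

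The upstream sequences of 6 members are given first, because the results turn on these genes: *Cyp2c55*, *Cyp2c65* and *Cyp2c66*, neighbours that include the most abundant P450 mRNAs of this colon; *Cyp2c68*, a relative from the same gene cluster whose levels went the opposite way in one mouse; and *Cyp4f16* and *Cyp2e1*, which had the lowest unadjusted p-values. Each is the 250 bases before the gene start in RefSeq (build GRCm38.p6, which is not the build of the expression values), written along the gene's own strand. The positions are chr19:39006769-39007018, chr19:39060756-39061005, chr19:39113648-39113897 and chr17:32536307-32536556 and chr7:140763569-140763818 on the plus strand and chr19:39741102-39741351 on the minus strand. Capitals mark matches on either strand to TATAAA, the letters of the TATA box, to CAAAGTCCA, an HNF4-type site, to AGTTCA, a half-site of PXR and CAR, and to GCGTG, the core bound by the aryl hydrocarbon receptor, which reads CACGC on the other strand. No match to one overlaps a match to another in these sequences.
Cyp2c55: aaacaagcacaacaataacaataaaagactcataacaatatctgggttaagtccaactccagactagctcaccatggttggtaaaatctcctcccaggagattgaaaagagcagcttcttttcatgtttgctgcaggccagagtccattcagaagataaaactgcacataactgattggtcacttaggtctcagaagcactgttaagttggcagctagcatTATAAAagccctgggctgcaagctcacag
Cyp2c65: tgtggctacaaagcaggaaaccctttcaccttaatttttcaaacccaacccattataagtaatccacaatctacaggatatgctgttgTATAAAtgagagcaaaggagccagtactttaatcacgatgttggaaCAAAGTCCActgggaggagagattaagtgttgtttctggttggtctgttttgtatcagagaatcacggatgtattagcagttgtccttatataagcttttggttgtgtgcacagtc
Cyp2c66: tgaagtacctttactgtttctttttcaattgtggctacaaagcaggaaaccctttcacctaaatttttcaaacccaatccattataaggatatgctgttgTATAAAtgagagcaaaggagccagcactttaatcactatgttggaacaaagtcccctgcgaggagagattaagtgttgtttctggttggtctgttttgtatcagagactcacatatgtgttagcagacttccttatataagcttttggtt
Cyp2c68: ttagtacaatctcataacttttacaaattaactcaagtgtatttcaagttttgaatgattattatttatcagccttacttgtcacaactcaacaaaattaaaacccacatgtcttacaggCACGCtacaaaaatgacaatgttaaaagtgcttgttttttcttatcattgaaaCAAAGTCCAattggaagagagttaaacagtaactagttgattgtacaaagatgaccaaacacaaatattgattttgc
Cyp4f16: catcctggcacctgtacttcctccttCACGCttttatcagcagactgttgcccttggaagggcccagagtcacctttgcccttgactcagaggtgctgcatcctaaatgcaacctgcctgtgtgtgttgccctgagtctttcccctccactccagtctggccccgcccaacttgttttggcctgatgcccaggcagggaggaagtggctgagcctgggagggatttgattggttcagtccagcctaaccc
Cyp2e1: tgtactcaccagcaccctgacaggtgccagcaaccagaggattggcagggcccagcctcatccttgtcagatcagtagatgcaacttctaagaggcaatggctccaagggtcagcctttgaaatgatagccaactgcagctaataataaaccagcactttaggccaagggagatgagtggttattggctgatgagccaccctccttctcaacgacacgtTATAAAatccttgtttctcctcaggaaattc

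*Cyp2c55* and *Cyp2e1* carried TATAAA 29 and 31 bases before the start. *Cyp2c65* and *Cyp2c66* carried it farther upstream, at 162 and 150 bases, in a stretch that both share, and their 2 upstream sequences were 74.2% identical over the alignment. Neither was close to that of *Cyp2c55*, with 54.7% and 51.1% identity, near the median of 51.1% over the 36 pairs of Cyp2c members with a sequence. The exact HNF4-type letters stood in *Cyp2c65* and *Cyp2c68* and in none of the other 4 sequences shown. In the stretch shared with *Cyp2c65*, *Cyp2c66* reads CAAAGTCCC, which differs from them in the last letter only. Among the 50 members with an entry in the RefSeq table, 8 held the exact letters (16%), against 0.381% of the 27025 genes in the table. These 8 were *Cyp2c40*, *Cyp2c65*, *Cyp2c67*, *Cyp2c68*, *Cyp2c69*, *Cyp2c70*, *Cyp3a11* and *Cyp8b1*, of which 6 lie in 1 gene cluster and are related in sequence, so they are not independent matches. TATAAA stood in 18 of the 50 (36%), against 13.0% of all genes. The PXR and CAR half-site was held by 8 members (16% against 11.9%) and the aryl hydrocarbon receptor core by 14 (28% against 28.2%). A match of letters is a description of the sequence and not a measured site.

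The colon expressed a few P450 genes at high levels and most of them hardly at all. Expression is given as FPKM, the fragments per kilobase of transcript and 1000000 mapped fragments, which the authors deposited to 2 decimals, and levels of different genes are compared on this scale only. The mean FPKM of the 6 mice was at least 100 for 7 members and at least 10 for 18. At the other end, 25 members stayed under 0.5 in every mouse, and 66 of the 372 values were listed at 0. The 62 values together summed to 3598, 1357 and 2715 FPKM in OP mice 1, 2 and 3 and to 2158, 2788 and 1663 FPKM in OR mice 1, 2 and 3, which is between 0.232% and 0.600% of all FPKM of a mouse. Both the highest and the lowest sum belonged to OP mice, and the groups overlapped.

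**Figure D1:**
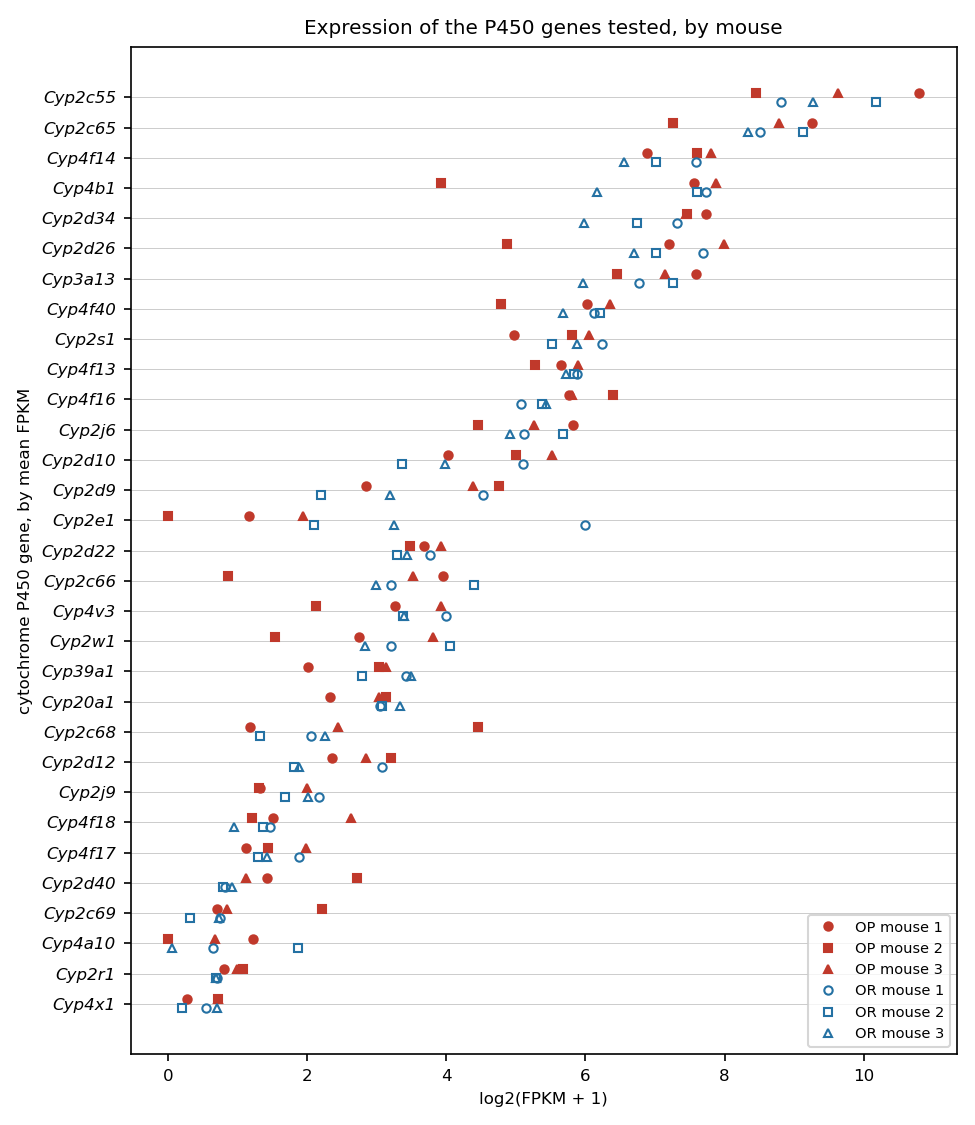
Expression of the 31 P450 genes tested, as log2(FPKM + 1) on the x axis, with genes ordered by mean FPKM on the y axis. Filled red symbols are OP mice and open blue symbols OR mice, and circle, square and triangle are mouse 1, 2 and 3; the red square of OP mouse 2 lies at the left edge of its row for *Cyp4b1*, *Cyp2d26* and *Cyp2c66* and at the right edge for *Cyp2c68* and *Cyp2c69*.

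*Cyp2c55*, an arachidonic acid oxidase, was the most abundant member. It had 1784.59, 348 and 788.6 FPKM in OP mice 1, 2 and 3 and 448.92, 1155.71 and 619.82 FPKM in OR mice 1, 2 and 3, and made up between 20.8% and 49.6% of the P450 sum. By its mean it ranked 112 among all genes listed. The groups overlapped completely, since OP mice held both the highest and the lowest of the 6 values, 5.13-fold apart. *Cyp2c65* followed the same order in the OP mice, with 612.88, 151.83 and 439.4 FPKM, beside 361.87, 557.7 and 321.48 FPKM in the OR mice. *Cyp2c66*, which lies next to it, was far lower, with 14.41, 0.81 and 10.51 FPKM in the OP and 8.22, 20.17 and 6.9 FPKM in the OR mice. In all 3 neighbours OP mouse 2 was the lowest mouse.

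The 9 members of the Cyp2c gene cluster, in their order in RefSeq, ran from a mean of 858 FPKM for *Cyp2c55*, the first, down to 0.00833 FPKM for *Cyp2c50*. The 4 members next to each other between them, *Cyp2c67*, *Cyp2c68*, *Cyp2c40* and *Cyp2c69*, were all highest in OP mouse 2. *Cyp2c68* had 1.26, 20.96 and 4.46 FPKM in the OP mice and 3.14, 1.51 and 3.79 FPKM in the OR mice, and *Cyp2c69* had 0.62, 3.63 and 0.8 FPKM in the OP and 0.68, 0.25 and 0.66 FPKM in the OR mice. Of all stretches of 50 bases in their GENCODE transcripts, between 43.3% and 72.1% also occur in another P450 transcript, so the authors' counting could have split reads between these 4 genes and their separate values are uncertain.

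To ask whether P450 expression separated the OP from the OR phenotype, the 31 members that reached 0.5 FPKM in 3 or more mice were compared, within a limma-trend fit of log2(FPKM + 1) over the 13520 genes that passed this filter. No member passed the filter through 1 group alone. At a q-value below 0.2 with a fold change from 1.2 upward or from 0.83 downward, the thresholds of the study's comparison, 0 of the 31 members were called, beside 0.0222% of all genes tested, and the q-values of the members ran from 0.933 to 0.993. This fit called 3 of the 13520 genes at these thresholds, where the study's own comparison with another tool called many more. The 0 therefore belongs to this fit and is not the study's result. At an unadjusted p below 0.05, 1 member was lower in OP (*Cyp2e1*), where 3.53% of all genes tested were lower, and 3 were higher (*Cyp2d34*, *Cyp2d40* and *Cyp4f16*), where 0.503% of all genes were higher. The 3 OP values lay wholly below the 3 OR values in 1 member, beside 6.81% of all genes, and wholly above them in 4, the 3 named and *Cyp2r1*, beside 1.63% of all genes.

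By the sign of the difference the members were divided, with 16 lower and 15 higher in OP. Their median log2 fold change was -0.01, and that of all genes tested was -0.10, of which 29.9% had a higher OP mean. OP mouse 1 was the lowest of the 6 mice in 54.4% of all genes tested and in 5 of the 31 members (16.1%). Without this mouse the median was -0.01 for all genes and 0.05 for the members, and 47.4% of all genes and 51.6% of the members were higher in OP. Median-of-ratios scaling of the FPKM values gave medians of 0.01 for all genes and 0.08 for the members. With it 14 members were lower and 17 higher in OP (54.8%), close to the 52.0% of all genes that were higher. Without OP mouse 2, 22 of 30 members were higher in OP (73.3%, beside 31.3% of all genes), with a median of 0.25 beside -0.12 for all genes.

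**Figure D2:**
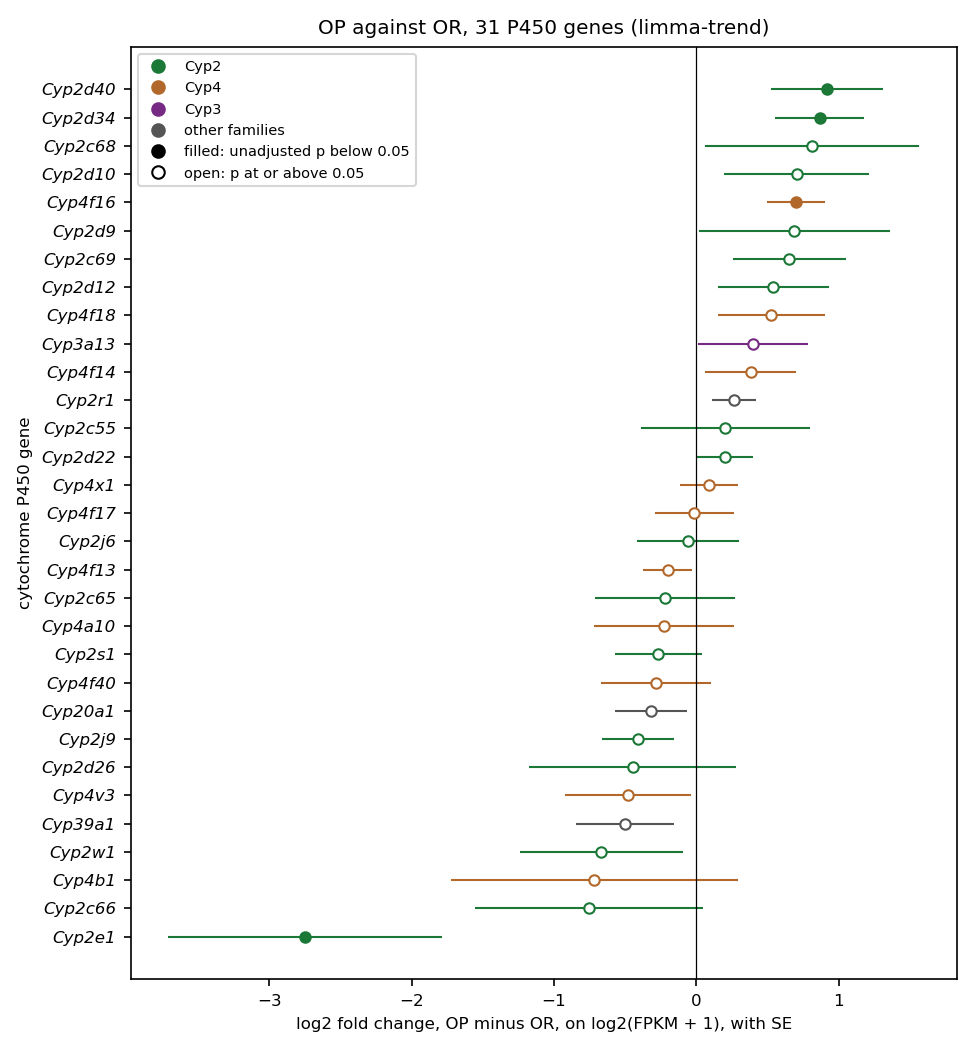
Log2 fold change of OP minus OR on the log2(FPKM + 1) scale (x axis) for the 31 P450 genes tested (y axis), with bars of 1 standard error from the limma-trend fit. Filled points, *Cyp2e1* on the left and *Cyp2d40*, *Cyp2d34* and *Cyp4f16* on the right, had an unadjusted p below 0.05, and 0 had a q-value below 0.2.

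Among the Cyp2 genes, the most abundant group, counted without *Cyp2r1* and *Cyp2u1*, which are described with other groups, 17 of 29 members were tested, of which 8 were lower and 9 higher in OP, with 1 and 2 at an unadjusted p below 0.05. *Cyp2e1*, which oxidises ethanol and other small molecules and is best known from liver and fat tissue, had 1.24, 0 and 2.84 FPKM in the OP mice and 62.99, 3.26 and 8.54 FPKM in the OR mice. Every OP mouse was below every OR mouse, but OR mouse 1 stood far above the rest and OR mouse 2 was close to OP mouse 3. The log2 fold change was -2.75 ± 0.96 (SE), with p = 0.0233 and q = 0.945 by limma-trend and p = 0.1 by the two-sided exact permutation test, the smallest it can give for 3 mice against 3. The unadjusted limma-trend p was 0.0561 without OP mouse 1 (log2 fold change -2.81) and 0.0693 without OP mouse 2 (-2.23). Without OR mouse 1 it was 0.0318, with a smaller change of -1.64.

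Adipocyte markers mostly took the same extremes as *Cyp2e1*: 3 of the 4 were highest in OR mouse 1, and all 4 were lowest in OP mouse 2. The other, *Cidec*, was highest in OP mouse 1, with 34.58, 8.43 and 14.89 FPKM in the OP and 32.88, 15.82 and 12.36 FPKM in the OR mice. These extremes were not particular to adipocyte markers. All 5 smooth muscle markers were also highest in OR mouse 1, and all 5 macrophage and 4 of 5 fibroblast markers were lowest in OP mouse 2. *Adipoq* (adiponectin) had 6.61, 0 and 6.99 FPKM in the OP mice and 18.48, 2.81 and 10.45 FPKM in the OR mice. *Retn* (resistin) had 3.5, 0 and 4.7 FPKM in the OP and 26.27, 0.99 and 9.82 FPKM in the OR mice. The summed level of the 4 markers ranged from 8.43 to 45.36 FPKM in OP and from 19.86 to 81.86 FPKM in OR mice, and 0 of them had an unadjusted p below 0.05. The 4 hepatocyte markers listed summed to between 3 and 9.7 FPKM in OP and between 3.01 and 7.46 FPKM in OR mice, most of it *Ttr* with 2.11 to 9.03 FPKM, while *Alb* was at or under 0.72 FPKM in every mouse. The part of adipose tissue in the *Cyp2e1* difference was not tested, and in bulk RNA fewer cells of a type cannot be told apart from less RNA per cell.

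*Cyp2d34*, one of the mouse relatives of the human drug-oxidising enzyme CYP2D6, had 212.42, 175 and 173.25 FPKM in the OP mice and 158.78, 105.65 and 62.37 FPKM in the OR mice. No OR mouse reached the lowest OP mouse, with means of 187 ± 22.1 and 109 ± 48.3 FPKM (SD, n = 3 each). The log2 fold change was 0.87 ± 0.31 (SE), with p = 0.0258 and q = 0.945 by limma-trend and p = 0.1 by the exact permutation test. Without OP mouse 1, OP mouse 3 and OR mouse 3 the unadjusted limma-trend p was 0.0817, 0.0502 and 0.0519 and the change 0.77, 0.92 and 0.52, and with sample weights the p was 0.0704. *Cyp2d40*, its neighbour in the gene cluster, was low throughout, with 1.69, 5.56 and 1.18 FPKM in the OP and 0.76, 0.72 and 0.89 FPKM in the OR mice. Its log2 fold change was 0.92 ± 0.39 (SE), with p = 0.0498 and q = 0.945 by limma-trend and p = 0.1 by the exact permutation test. Without OP mouse 2 it was 0.44, with an unadjusted p of 0.0682. The p also missed 0.05 without OP mouse 1 or any 1 OR mouse, at values between 0.0528 and 0.105, and it was 0.0502 in limma without trend and 0.0612 with no filter on low values.

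The other Cyp2d genes overlapped between the groups. *Cyp2d26* had 145.86, 28.41 and 252.39 FPKM in the OP and 204.95, 128.92 and 102.7 FPKM in the OR mice, with both extremes in OP mice and a log2 fold change of -0.45 ± 0.73 (SE). *Cyp2d10* had 15.31, 31.06 and 44.95 FPKM in the OP and 33.45, 9.24 and 14.79 FPKM in the OR mice (0.70 ± 0.51), and *Cyp2d9*, a steroid hydroxylase known from male liver, had 6.18, 26.17 and 19.82 FPKM in the OP and 21.99, 3.61 and 8.17 FPKM in the OR mice (0.69 ± 0.67). Without OR mouse 1, the highest OR mouse in both, *Cyp2d10* reached 1.18, with an unadjusted limma-trend p of 0.0331. *Cyp2d22* was steady, between 8.79 and 14.17 FPKM. In all, 6 of the 7 Cyp2d genes tested had a higher OP mean. They are not independent measurements, because *Cyp2d10*, *Cyp2d9*, *Cyp2d40*, *Cyp2d12*, *Cyp2d34* and *Cyp2d26* share between 10.5% and 39.8% of their 50-base stretches with other P450 transcripts, and the Cyp2d sum overlapped between the groups, at 397.44, 284.7 and 511.92 FPKM in the OP and 440.04, 259.43 and 201.4 FPKM in the OR mice.

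The remaining abundant Cyp2 and Cyp3 genes lay within the spread between mice. *Cyp2s1*, which oxidises retinoids, ranged from 30.38 to 65.25 FPKM in OP and from 44.96 to 74.16 FPKM in OR mice. *Cyp2j6*, of a subfamily that oxidises polyunsaturated fatty acids, had means of 37.9 ± 17.2 and 37.8 ± 11.2 FPKM (SD, n = 3 each). *Cyp2w1*, known from fetal gut and colon tumours, had 5.68, 1.9 and 13.01 FPKM in the OP and 8.2, 15.56 and 6.15 FPKM in the OR mice; its log2 fold change of -0.67 ± 0.57 (SE) became -1.23 without OP mouse 3, with an unadjusted limma-trend p of 0.0440. *Cyp3a13*, the 1 drug-oxidising Cyp3a gene of 5 that passed the filter, had 191.01, 86.28 and 140.08 FPKM in the OP and 107.92, 152.38 and 61.19 FPKM in the OR mice (0.40 ± 0.39). The other 4 Cyp3a genes, *Cyp3a11* among them, a main drug-oxidising P450 of the liver, stayed at or under 1.26 FPKM. Of the 12 genes of this Cyp2 group that were not tested, none exceeded 0.47 FPKM in any mouse, including *Cyp2b10*, the classical target of CAR, at or under 0.08 FPKM.

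**Figure D3:**
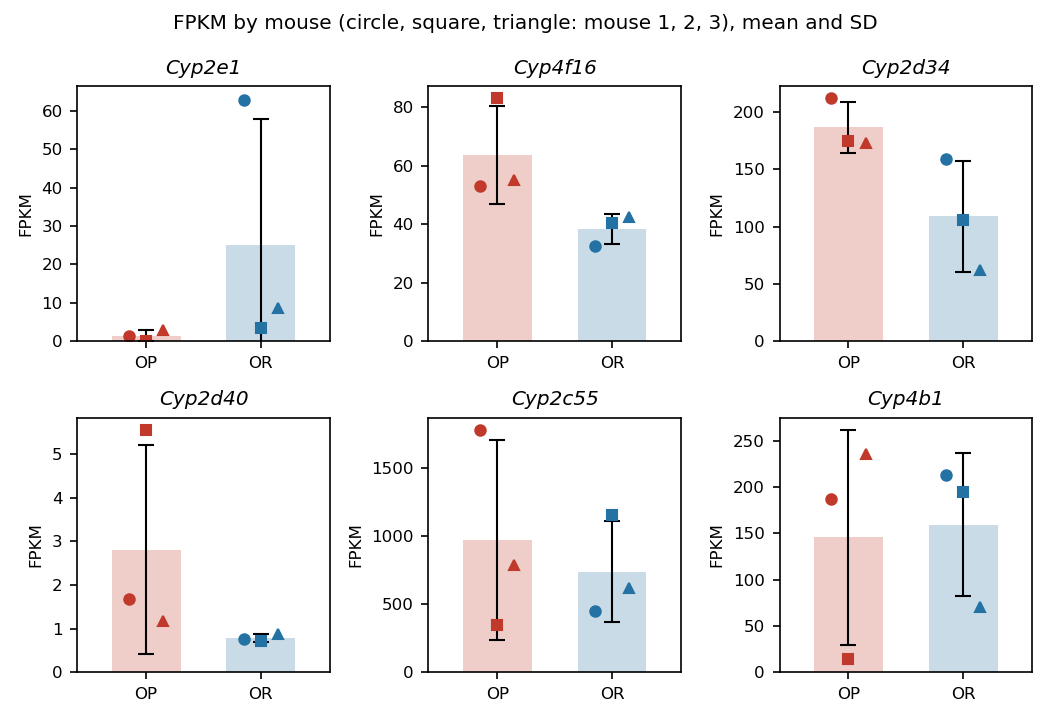
FPKM (y axis, from 0) of 6 P450 genes in OP (red) and OR (blue) mice, with a bar for the mean, a whisker for the SD (n = 3, the lower whisker of *Cyp2e1* ending at 0 by the axis) and circle, square and triangle for mouse 1, 2 and 3. The groups do not overlap in *Cyp2e1*, *Cyp4f16*, *Cyp2d34* and *Cyp2d40* and overlap in *Cyp2c55* and *Cyp4b1*.

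Of the 14 Cyp4 genes, 10 were tested, with 6 lower and 4 higher in OP. *Cyp4f16*, of a subfamily that oxidises leukotrienes and long-chain fatty acids, had 53.15, 83.16 and 55.15 FPKM in the OP and 32.52, 40.36 and 42.31 FPKM in the OR mice. Each OP mouse exceeded each OR mouse, with means of 63.8 ± 16.8 and 38.4 ± 5.18 FPKM (SD, n = 3 each). The log2 fold change was 0.70 ± 0.20 (SE; p = 0.0101, q = 0.933, limma-trend), the exact permutation p was 0.1, and p stayed between 0.00923 and 0.0395 with each mouse left out in turn. Of its 50-base stretches, 26.5% also occur in other P450 transcripts, and no P450 gene shares more of them than *Cyp4f37*.

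Its neighbours in the gene cluster overlapped between the groups. *Cyp4f14*, an omega-hydroxylase of leukotriene B4 and vitamin E and the most abundant Cyp4 gene, had 117.37, 193.4 and 222.58 FPKM in the OP and 191.47, 128.03 and 92.92 FPKM in the OR mice (0.38 ± 0.32). *Cyp4f13* had the smallest ratio of highest to lowest mouse among the members tested, 1.55, and lay between 37.84 and 58.49 FPKM in OP and 51.67 and 58.09 FPKM in OR mice (-0.20 ± 0.17). *Cyp4f40* ranged from 26.57 to 80.9 FPKM in OP and from 50.16 to 73.26 FPKM in OR mice (-0.28 ± 0.39). The Cyp4f sum was 287.15, 344.04 and 425.72 FPKM in the OP and 355.28, 301.5 and 239.66 FPKM in the OR mice, which overlap. Of the 2 lower Cyp4f genes tested, *Cyp4f17* lay between 1.18 and 2.97 FPKM, and *Cyp4f18*, a leukotriene hydroxylase of blood cells, between 0.92 and 5.21 FPKM, highest in OP mouse 3.

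*Cyp4b1*, a hydroxylase of medium-chain fatty acids, was the least even of the abundant members. It had 187.6, 14.22 and 235.13 FPKM in the OP and 212.74, 194.32 and 71 FPKM in the OR mice, a range of 16.5-fold. Its log2 fold change of -0.72 ± 1.01 (SE) turned to 0.55 without OP mouse 2. *Cyp4v3*, which acts on fatty acids of similar length, had 8.59, 3.35 and 14.23 FPKM in the OP and 15, 9.36 and 9.48 FPKM in the OR mice. *Cyp4a10*, a PPARalpha target of liver, and *Cyp4x1* were just inside the filter: *Cyp4a10* ran from 0 to 1.33 FPKM in OP and from 0.04 to 2.64 FPKM in OR mice, and *Cyp4x1* from 0.21 to 0.64 and from 0.15 to 0.62 FPKM.

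Few P450 genes of the sterol, vitamin D, retinoic acid, steroid and aryl hydrocarbon receptor groups were detected at a level that could be compared. *Cyp39a1*, an oxysterol hydroxylase, had 3.05, 7.17 and 7.76 FPKM in the OP and 9.66, 5.91 and 10.21 FPKM in the OR mice (-0.50 ± 0.34). *Cyp2r1*, which adds the first hydroxyl group to vitamin D, had 0.75, 1.1 and 0.98 FPKM in the OP and 0.62, 0.61 and 0.61 FPKM in the OR mice, without overlap (0.26 ± 0.15, SE; p = 0.128 by limma-trend and p = 0.1 by the exact permutation test). *Cyp24a1*, which degrades active vitamin D, did not pass the filter, with 6.94 FPKM in OP mouse 1 alone, 0.02 and 0.18 FPKM in OP mice 2 and 3, and 0, 0 and 0.02 FPKM in the OR mice. This was the highest value among the 31 members not tested, of which the median member reached 0.24 FPKM in its highest mouse.

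*Cyp27b1*, which makes active vitamin D, stayed at or under 0.26 FPKM, and the retinoic acid hydroxylases *Cyp26a1* and *Cyp26b1* at or under 0.08 and 0.6 FPKM. *Cyp26b1* and *Cyp2f2*, a naphthalene oxidase of the lung, were the members just outside the filter, with the third highest mouse at 0.29 and 0.41 FPKM. The steroidogenic genes *Cyp11a1* and *Cyp21a1* reached 0.34 and 0.04 FPKM and the sterol 12-alpha-hydroxylase gene *Cyp8b1* 0.04 FPKM. *Cyp46a1*, a cholesterol hydroxylase of the brain, reached 0.31 FPKM. Of the 2 members outside these groups, *Cyp20a1* lay between 4.03 and 7.79 FPKM in OP and between 7.27 and 9.07 FPKM in OR mice (-0.32 ± 0.25, SE), and *Cyp2u1* stayed at or under 0.59 FPKM. *Cyp1a1*, the classical target of the aryl hydrocarbon receptor, was at or under 0.3 FPKM. *Cyp1b1*, another target, was at or under 0.06 FPKM in OP and between 0.13 and 0.26 FPKM in OR mice, levels at which 2 decimals leave few steps.

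Many P450 genes differed widely between mice of the same group. The residual SD of the limma-trend fit on the log2 scale had a median of 0.599 over the 31 members, against 0.253 over all genes tested. It was above the median of all genes in 28 members and above their 90th percentile of 0.534 in 19. The gap was not confined to low values: among genes with a geometric mean near 10 FPKM or more, the median was 0.617 for 15 members and 0.217 for 6625 genes. *Cyp4b1* had the largest value, 1.67, followed by *Cyp2e1* with 1.58 and *Cyp2c66* with 1.30, and *Cyp2r1* the smallest, 0.0950. Without OP mouse 2 the medians were 0.525 for the members and 0.243 for all genes, and without any 1 of the other mice the members' median stayed at 0.596 or more. Members that lie beside each other or share reads are not independent points in these counts.

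**Figure D4:**
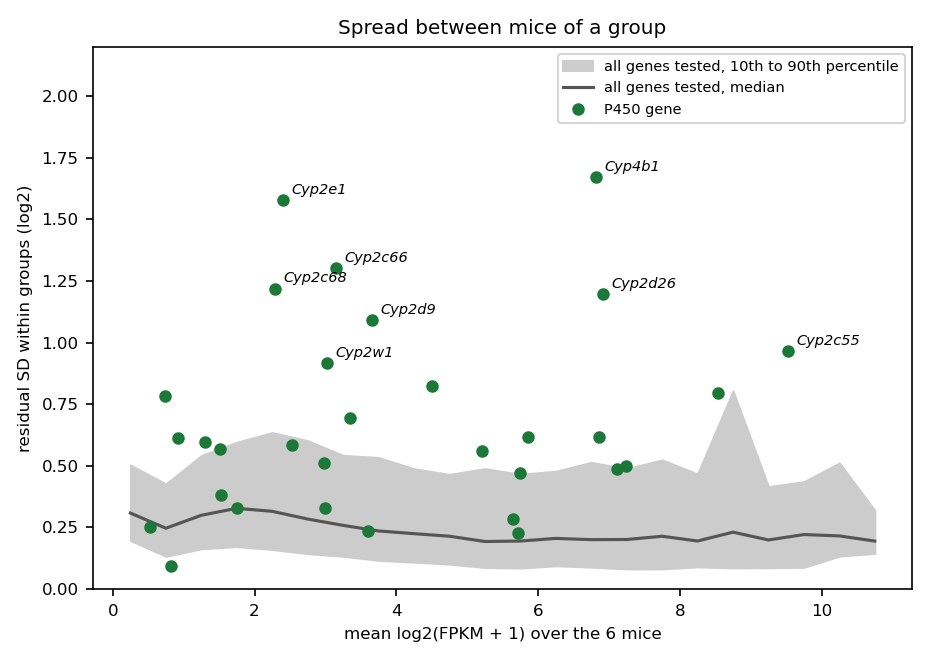
Residual SD within groups (y axis, log2 scale) against mean log2(FPKM + 1) of the 6 mice (x axis). Green points are the 31 P450 genes tested, the line is the median of all 13520 genes by level and the band runs from their 10th to their 90th percentile; 19 P450 genes exceed 0.534, the 90th percentile over all levels.

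The extreme values of the members were not spread evenly over the mice. OP mouse 2 was the lowest of the 6 mice in 13 of the 31 members (41.9%, beside 17.3% of all genes tested) and the highest in 8 (25.8%, beside 13.2%). The 13 included *Cyp2c55*, *Cyp2c65*, *Cyp2c66*, *Cyp2d26*, *Cyp4b1*, *Cyp4f40*, *Cyp4v3*, *Cyp2j6* and *Cyp2w1*, and the 8 included *Cyp2c68*, *Cyp2d9*, *Cyp2d40* and *Cyp4f16*. The 8 also counted *Cyp4x1*, in which OP mice 2 and 3 tied at 0.64 FPKM. OR mouse 2 was the lowest in 8 (25.8%, beside 7.76% of all genes), which were 5 Cyp2d genes (*Cyp2d9*, *Cyp2d10*, *Cyp2d12*, *Cyp2d22* and *Cyp2d40*), *Cyp2c69*, *Cyp2r1* and *Cyp4x1*. In *Cyp2r1* it tied with OR mouse 3 at 0.61 FPKM. In OP mouse 2 *Hoxa13*, a positional gene of the hindgut, had 29.54 FPKM against 0.27 to 3.58 FPKM in the other 5 mice, while *Hoxd10* had 0.04 FPKM against 2.6 to 6.8 FPKM. Of the 5 posterior Hox genes, *Hoxd12* and *Hoxd13* were at or under 0.16 FPKM in all mice. Of the 9 colon epithelium markers, 5 (*Cdh1*, *Krt8*, *Krt19*, *Slc26a3* and *Aqp8*) were highest in OP mouse 2 and *Car1*, a carbonic anhydrase, was lowest there, at 1054 FPKM against 4836 to 15723 FPKM. *Epcam* and *Krt8* were steady, at 935 FPKM or more and 2434 FPKM or more in every mouse, while *Aqp8* ran from 10.08 to 1084.04 FPKM, *Slc26a3* from 50.32 to 415.15 FPKM and *Krt20* from 403 to 1300 FPKM, and the sum of the 9 ranged from 11164 to 24498 FPKM in OP and from 11973 to 24932 FPKM in OR mice. Small intestinal markers were partly present: *Fabp2* reached 2393 FPKM, *Fabp6* ran from 1.03 to 74.19 FPKM and *Sis* from 0.08 to 10.06 FPKM, both lowest in OP mouse 2 and highest in OR mouse 1, *Apoa4* reached 4.02 FPKM, and *Lct* stayed at or under 0.05 FPKM. The sum of these 5 ranged from 709 to 2405 FPKM in OP and from 785 to 1761 FPKM in OR mice. In every mouse most of this sum was *Fabp2*. Whether the position of the sample along the gut took part in the P450 values was not tested.

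**Figure D5:**
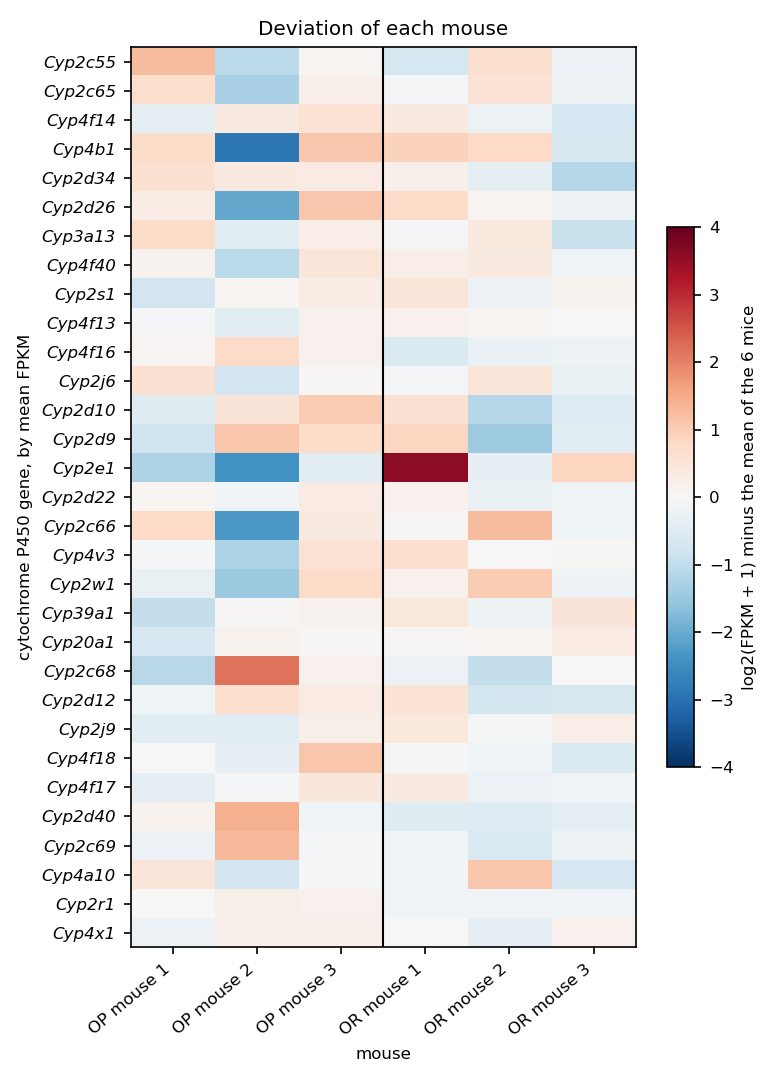
Deviation of each mouse (columns) from the mean of the 6 mice, in log2(FPKM + 1), for the 31 P450 genes tested (rows, by mean FPKM), with red above and blue below the mean. The column of OP mouse 2 holds the strongest blue for *Cyp4b1*, *Cyp2e1*, *Cyp2c66* and *Cyp2d26* and the strongest red for *Cyp2c68*, and the strongest red of all is *Cyp2e1* in OR mouse 1.

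The genes that supply and control the P450 enzymes were compared in the same fit. Of the 14 genes of electron supply and heme, 0 had an unadjusted p below 0.05 in either direction, and their median log2 fold change was -0.15. *Por*, the electron donor, had 106.43, 70.29 and 88.72 FPKM in the OP and 73.85, 83.28 and 76.8 FPKM in the OR mice (0.16 ± 0.17, SE), and *Alas1*, which catalyses the first step of heme synthesis, had 42.18, 68.29 and 31.38 FPKM in the OP and 45.92, 54.92 and 58.73 FPKM in the OR mice. Of the 11 regulators tested, 0 had an unadjusted p below 0.05, with a median of -0.06. *Hnf4a* lay between 285.15 and 351.24 FPKM in all mice, *Vdr* (vitamin D receptor) between 119.55 and 232.83 FPKM and *Nr1i2* (PXR) between 40.29 and 68.33 FPKM. *Ahr* was low, between 2.47 and 4.26 FPKM, and its other targets *Tiparp* and *Nqo1* had differences of -0.31 ± 0.17 and -0.37 ± 0.22 (SE), both with p above 0.05 by limma-trend.

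The P450 genes with other symbol forms were taken separately. *Cyp51*, a sterol demethylase, overlapped between the groups, at 10.38 to 29.24 FPKM in OP and 9.87 to 31.67 FPKM in OR mice. *Ptgis* (prostacyclin synthase) had 2.94, 4.3 and 4.94 FPKM in the OP and 9.08, 5.84 and 5.65 FPKM in the OR mice (-0.63 ± 0.25, SE). *Tbxas1* (thromboxane synthase) had 0.5, 0.13 and 0.43 FPKM in the OP and 0.76, 0.99 and 1.25 FPKM in the OR mice (-0.57 ± 0.18, SE). The limma-trend p was 0.0386 and 0.0170, the q-value was 0.945 and 0.945, and the exact permutation test gave p = 0.1 for each. Both are known from cells of vessels and blood rather than epithelium. All 5 endothelial and all 5 macrophage markers were lower in OP at an unadjusted limma-trend p below 0.05, beside 3.53% of all genes tested. So were 3 of 5 fibroblast markers, against 0 of 9 epithelial and 0 of 5 smooth muscle markers. The q-values of the markers called ran from 0.624 to 0.945, so 0 passed the q-value threshold. Of these markers, *Kdr*, *Csf1r* and *Sparc* overlapped between the groups. The summed macrophage markers ranged from 15.15 to 41.11 FPKM in OP and from 42.71 to 64.67 FPKM in OR mice. The part of these cell types in the *Ptgis* and *Tbxas1* differences was not tested.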

How the data were processed

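Colon RNA of 3 OP and 3 OR mice was sequenced on the DNBSEQ platform. According to the methods, reads were filtered with SOAPnuke, Bowtie2 placed them on a reference gene set and RSEM gave the level of each gene. The labels and the methods name different versions of Bowtie2 and RSEM, and the submitters' processing notes list HISAT2 2.0.4 and build GRCm39. The deposited unit is FPKM, computed by the authors in 1 column for each mouse and rounded to 2 decimals. All 6 columns were used, and 0 others were set aside. Since FPKM holds no read totals, the depth of each mouse and its counting error are unknown. A gene split or shared between near-identical relatives by the alignment cannot be resolved from these values.

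Genes that reached 0.5 FPKM in 3 or more mice were retained and log2(FPKM + 1) was fitted with limma-trend (limma 3.58.1, R 4.3.3) over the whole table, OP against OR without covariates, with Benjamini-Hochberg q-values over all genes tested. A fold change on this scale understates that of low genes. Single genes were also compared by the two-sided exact permutation test of mean FPKM (SciPy 1.17.1, 20 arrangements). The fit was tested on simulated data. The authors' own comparison tool needs counts and was not run. The p-values set the difference between the groups against the spread between the mice sequenced. In limma-trend the spread of each gene is drawn toward that typical of genes at its level, so p does not rest on its own mice alone.

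Genes named are the 20 members with the highest mean FPKM, those with an unadjusted p below 0.05, the 5 lowest and 5 highest log2 fold changes and the 2 members on each side of the filter; others (such as *Cyp2r1*, *Cyp2c69*, *Cyp20a1*, *Cyp24a1* and the low members) were named after their values were seen. Members and gene lists were chosen with earlier results of these data known. Of the 62 members, all 62 matched a GENCODE transcript by symbol for the 50-base stretches and 50 matched a RefSeq upstream sequence. Alternatives were the scaling, pseudocount, filter, spread model, weights for the mice, a block for the replicate number, and leaving out each mouse.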

Additional observations from a re-analysis of the deposited data

How the results depend on the processing

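The q-value threshold was passed by 0 members under all 14 alternatives to the fit, and *Cyp4f16* kept an unadjusted p below 0.05 and a higher OP mean under all 14. Over the 24 named members tested and these alternatives, 294 of 328 log2 fold changes kept their sign and their side of 0.05. The count lower in OP was 2 with no filter and 0 with at least 1 FPKM in all 6 mice, where *Cyp2e1* is not tested, and between 0 and 3 with each mouse left out (0 without OP mouse 1 or 2). The count higher in OP was between 1 and 4 with each mouse left out. The shares of all genes called under these alternatives are not given here, so the counts show only how far the members' calls moved. The members' median lay between -0.17 and 0.25, highest without OP mouse 2, and the median of all genes between -0.18 and 0.01. Of the 62 members, 39 were above 0 in all 6 mice and 27 reached 1 FPKM in 3 or more mice.

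The sign turned for *Cyp2c55* with sample weights (-0.13) and for *Cyp2j6* with median-of-ratios scaling (0.078). Leaving out 1 mouse at a time, log2 fold changes whose sign turned ran from -0.39 to 0.79 for *Cyp2c55*, -0.63 to 0.37 for *Cyp2c65*, -1.34 to 0.21 for *Cyp2c66*, -0.067 to 1.57 for *Cyp2c68*, -1.10 to 0.46 for *Cyp2d26*, -0.38 to 0.30 for *Cyp2j6*, -0.49 to 0.053 for *Cyp2s1*, -1.43 to 0.55 for *Cyp4b1*, -0.60 to 0.18 for *Cyp4f40*, -0.90 to 0.0077 for *Cyp4v3*, -0.62 to 0.28 for *Cyp4a10* and -0.054 to 0.23 for *Cyp4x1*. The cause was not tested.

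The replicate numbers belong to different mice. Deviations from the group means correlated at -0.14, -0.16 and 0.07 within the numbers, and 0 of the 6 mice correlated best with their own number. Across the numbers the highest correlations were 0.54 for OP mouse 1 with OR mouse 2, 0.42 for OP mouse 3 with OR mouse 1 and 0.39 for OP mouse 2 with OR mouse 3. The deviations of the 3 mice of a group sum to 0 in every gene, so some positive and some negative correlations are forced by arithmetic. Whether these mice have anything in common was not tested. With the replicate number as a block, 1 member was lower, 3 were higher and 0 passed the q-value threshold. The depth is unknown, so counting error at low FPKM cannot be given, and 3 mice a group limit the precision.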
